A study of Mus musculus with 2 samples.

Results

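The keratin and keratin-associated genes of the mouse autosomes were examined for promoter contacts on both parental alleles of one hybrid embryonic stem (ES) cell line. Members were all RefSeq genes of the GRCm38 assembly whose symbol starts with Krt or Krtap followed by a digit, and the windows of 50 kb that overlap them. The rule uses names and positions only, and found 111 genes of the 42056 autosomal genes that overlap a window of the table. Genes that overlap identical windows were treated as 1 locus, which left 64 loci of 29500. Together they occupy 58 windows of 43941. Most lie in 3 clusters, with 50 genes in 21 windows on chromosome 11, 27 genes in 14 windows on chromosome 15 and 24 genes in 15 windows on chromosome 16. The other members are 6 genes on chromosome 7, 3 on chromosome 10 and 1 on chromosome 1, in 8 windows. Of the 111 genes, 2 are annotated as pseudogenes, Krt8-ps and Krt74. Every member window held at least 10 interactions, so no member was lost to the filter on low counts.

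Promoter Capture Hi-C counts ligation products between baited promoter fragments and the DNA that lay close to them in the fixed nucleus. It was carried out on F121-6 cells, a female ES cell line from a cross of the 129 and Cas (castaneus) mouse strains, with HindIII digestion and baits for 22225 promoters. The only group has 2 samples, replicates 1 and 2, which share their data columns, so the table gives 1 pooled interaction count and 1 distance for each allele in each window and shows no spread between replicates. The cells were cultured with LIF on feeder fibroblasts inactivated with mitomycin C, and no source used here gives the part of the interactions that came from feeder cells. The line is a single cell line, and the table holds no expression values, so neither the ES cell label nor the activity of any keratin gene could be checked here. Interactions summed to 50842396 on the 129 allele and 37470557 on Cas over the autosomes, a 129 share of 57.57%, and the allelic comparisons below are made against that share.

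Keratins are the intermediate filament proteins of epithelial cells. Each filament is built from pairs of an acidic type I and a basic type II keratin, and the pair in use marks the tissue and layer: Krt8 with Krt18 in simple epithelia and the early embryo, Krt5 with Krt14 in the basal layer of the epidermis, Krt1 with Krt10 above it, and the hair keratins in the hair shaft. In the shaft the keratin filaments are embedded in small cysteine-rich or glycine- and tyrosine-rich keratin-associated proteins (KAPs), encoded by the Krtap genes. In the mouse the type I genes, with a block of Krtap genes among them, lie on chromosome 11 and the type II genes on chromosome 15, where Krt18 is the type I exception. Undifferentiated ES cells are not an epidermal cell type.

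A promoter sequence from RefSeq (GRCm38.p6, from 250 bases before to 50 after the annotated start) was found for 87 of the 111 genes, 88 promoters in all. The sequences below show the 80 bases before the start, 5′ to 3′ on the strand of the gene, with TATAAA, the core of a TATA box, in capitals. They are shown for 3 KAP genes in the windows ranked 1 and 3 of the genome by interactions, for a pair of keratins of different tissue layers, and for the KAP genes whose windows leaned farthest to one allele.
Krtap3-1, chr11:99566631-99566710, minus strand: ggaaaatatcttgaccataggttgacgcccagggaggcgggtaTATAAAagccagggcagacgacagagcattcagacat
Krtap1-5, chr11:99581017-99581096, minus strand: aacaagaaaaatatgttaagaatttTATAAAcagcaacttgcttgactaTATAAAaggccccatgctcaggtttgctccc
Krtap4-1, chr11:99628240-99628319, minus strand: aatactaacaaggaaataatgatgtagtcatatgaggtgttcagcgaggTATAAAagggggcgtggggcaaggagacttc
Krt10, chr11:99389365-99389444, minus strand: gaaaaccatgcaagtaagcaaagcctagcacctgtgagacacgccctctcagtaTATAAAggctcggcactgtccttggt
Krt18, chr15:102028136-102028215, plus strand: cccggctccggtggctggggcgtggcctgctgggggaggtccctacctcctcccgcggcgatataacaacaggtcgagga
Krtap20-2, chr16:89205781-89205860, plus strand: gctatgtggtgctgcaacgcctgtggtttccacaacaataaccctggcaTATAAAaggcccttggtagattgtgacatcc
Krtap8-1, chr16:89487953-89488032, minus strand: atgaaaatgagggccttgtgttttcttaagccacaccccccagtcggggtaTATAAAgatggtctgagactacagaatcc
Krtap5-3, chr7:142201284-142201363, plus strand: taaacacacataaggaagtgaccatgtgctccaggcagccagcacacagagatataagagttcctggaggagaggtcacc
Krtap5-5, chr7:142229972-142230051, minus strand: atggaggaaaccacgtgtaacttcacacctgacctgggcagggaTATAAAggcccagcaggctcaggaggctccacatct

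TATAAA was common in the promoters of these genes, and most common in those of the KAP genes. On either strand of the 300 bases it was present in 69.3% of the 88 member promoters and in 13.6% of all 31396 promoters of the table. On the gene's own strand, with its first base 20 to 40 bases before the start, it was present in 50.0% of member promoters against 2.02% of all promoters. By family the latter share was 60.8% of 51 KAP promoters, 45.5% of 22 type I promoters and 20% of 15 type II promoters. In Krtap20-2, Krtap1-5 and Krtap4-1 the first base of the nearest TATAAA lay 31 bases before the start, in Krt10 26 bases and in Krtap5-5 36 bases. The 80 bases shown for Krt18 and Krtap5-3 hold no TATAAA.

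The KAP promoters were poor in CpG, and GC boxes were rarer in each family than over all promoters. Member promoters held a median of 3 CpG against 7 over all promoters, and 77.3% of them had 5 or fewer CpG against 43.2% of all. By family that share was 94.1% for KAP, 59.1% for type I and 46.7% for type II promoters, and the median was 2, 5 and 6 CpG in the same order, so the type II promoters lay near the median of all promoters. GGGCGG, the core of the GC box bound by Sp1, was found in 2.27% of member promoters against 36.0% of all, on either strand. Krt7 and Krt18, keratins of simple epithelia, had 21 and 17 CpG, while Krt8, the type II partner of Krt18, had 6. CTTTGAA, a motif bound by LEF1, a Wnt pathway factor of the hair follicle, was found in 17.0% of member promoters against 5.09% of all, and in 0 of the 15 type II promoters. No promoter sequence was found for the type II hair shaft keratins Krt81, Krt83 and Krt86, so these are not among the 15. TGANTCA, the AP-1 motif, was found in 13.6% against 7.84%. AP-1 factors act in differentiating epidermis. Both strands were searched for each motif, and each was counted by itself, although a CTTTGAA that runs into a TGANTCA can share bases with it.

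**Figure D1:**
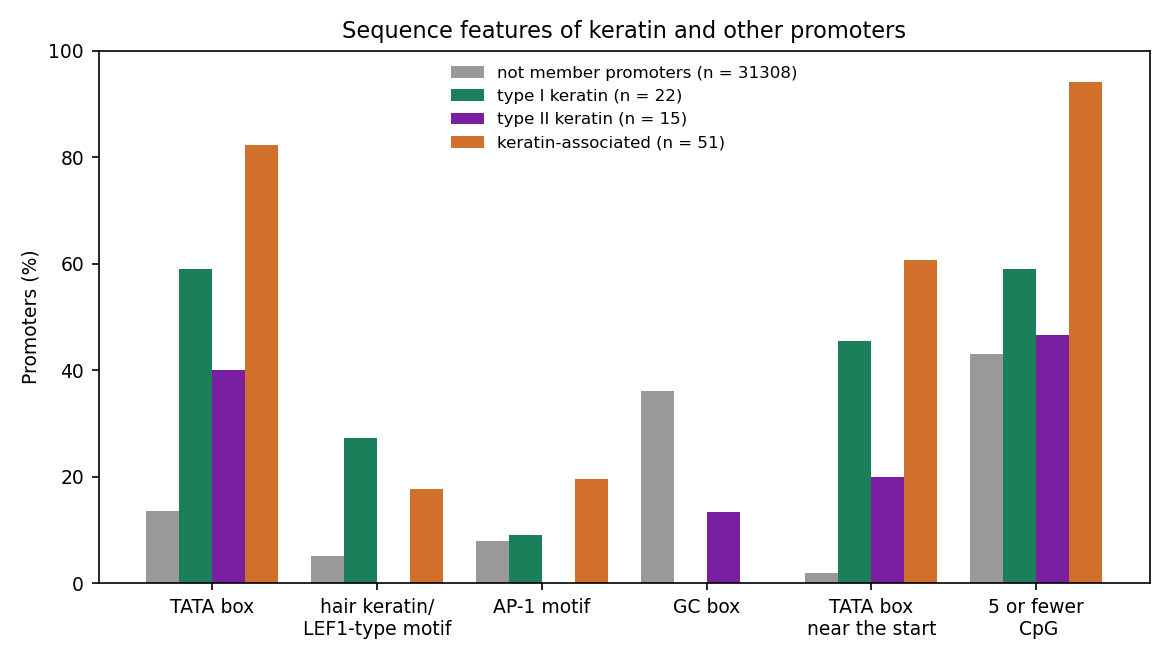
Share of promoters (percent of each set, y axis) that hold each sequence feature, with bars for 31308 promoters of other genes and for the 22 type I, 15 type II and 51 keratin-associated promoters. The TATA box stands highest in the keratin-associated set, 82.4% on either strand and 60.8% near the start, and the GC box is found in 36.1% of other promoters and in none of the type I or keratin-associated promoters.

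Promoters of paralogues were mostly not near-identical. The closest pair was Krtap19-1 and Krtap19-2, KAP genes of the glycine- and tyrosine-rich kind, at 91.0% identity in a global alignment of the 300 bases. Krtap31-1 and Krtap31-2 followed at 87.0%. The median identity of a promoter to its closest match among the members was 55.0% for KAP genes, 51.3% for type I and 49.7% for type II keratins. No value for unrelated promoters was set beside these, and the closest match could be of another family, as for Krt8 with Krt12. It lay on the same chromosome for 42 of the 51 KAP promoters, 18 of the 22 type I and 7 of the 15 type II promoters.

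The keratin clusters held many interactions on both alleles. The median over all autosomal windows was 974 interactions with both alleles summed, and 22 of the 58 member windows were among the 439 windows with the largest sums, the top 1%, while 11 were among the top 100. Chromosome 11 supplied 14 of those 22 windows, chromosome 16 supplied 5 and chromosome 15 supplied 3. The window with the largest sum of all 43941, and the largest count on each allele alone, was chromosome 11, 99550001 to 99600000. It holds Krtap3-3, Krtap3-2, Krtap3-1, Krtap1-5, Krtap1-4, Krtap1-3 and Krtap9-3, KAP genes of the hair shaft, and its counts were 19300 on 129 and 16044 on Cas. The adjoining window, from 99600001, holds Krtap2-4, Krtap4-1, Krtap4-2 and Krtap4-7 and had 13429 and 10852, the third largest sum of the genome.

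Among keratins the highest count belonged to an inner root sheath window, and windows of other tissues followed closely. Krt25, Krt26 and Krt27, type I keratins of the inner root sheath that encases the growing hair, share a window with 10748 interactions on 129 and 8973 on Cas, rank 16. The window of Krt12 and Krt20, keratins of cornea and intestine, ranked 28 with a sum of 17730, that of the hair keratins Krt31, Krt33a, Krt33b and Krt34 ranked 30 with 17499, and that of Krt23 ranked 33 with 17275. On chromosome 15 the highest was the window of the hair shaft keratins Krt81, Krt83 and Krt86 with Krt88, at 8334 and 6642, rank 71. Next on chromosome 15 came Krt72, Krt73 and the pseudogene Krt74, inner root sheath genes, at 5957 and 5071, rank 389. The window of Krt75, a keratin of the companion layer of the follicle, with Krt82 and Krt90 had 5757 and 5210, rank 397. On chromosome 16 the window of Krtap24-1 and Krtap26-1 had 10390 and 8289, rank 19, that of Krtap19-9b 7688 and 5530, rank 147, and that of Krtap27-1 6948 and 4965, rank 265. In each of these windows 129 had the larger raw count, as it did over all autosomes.

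**Figure D2:**
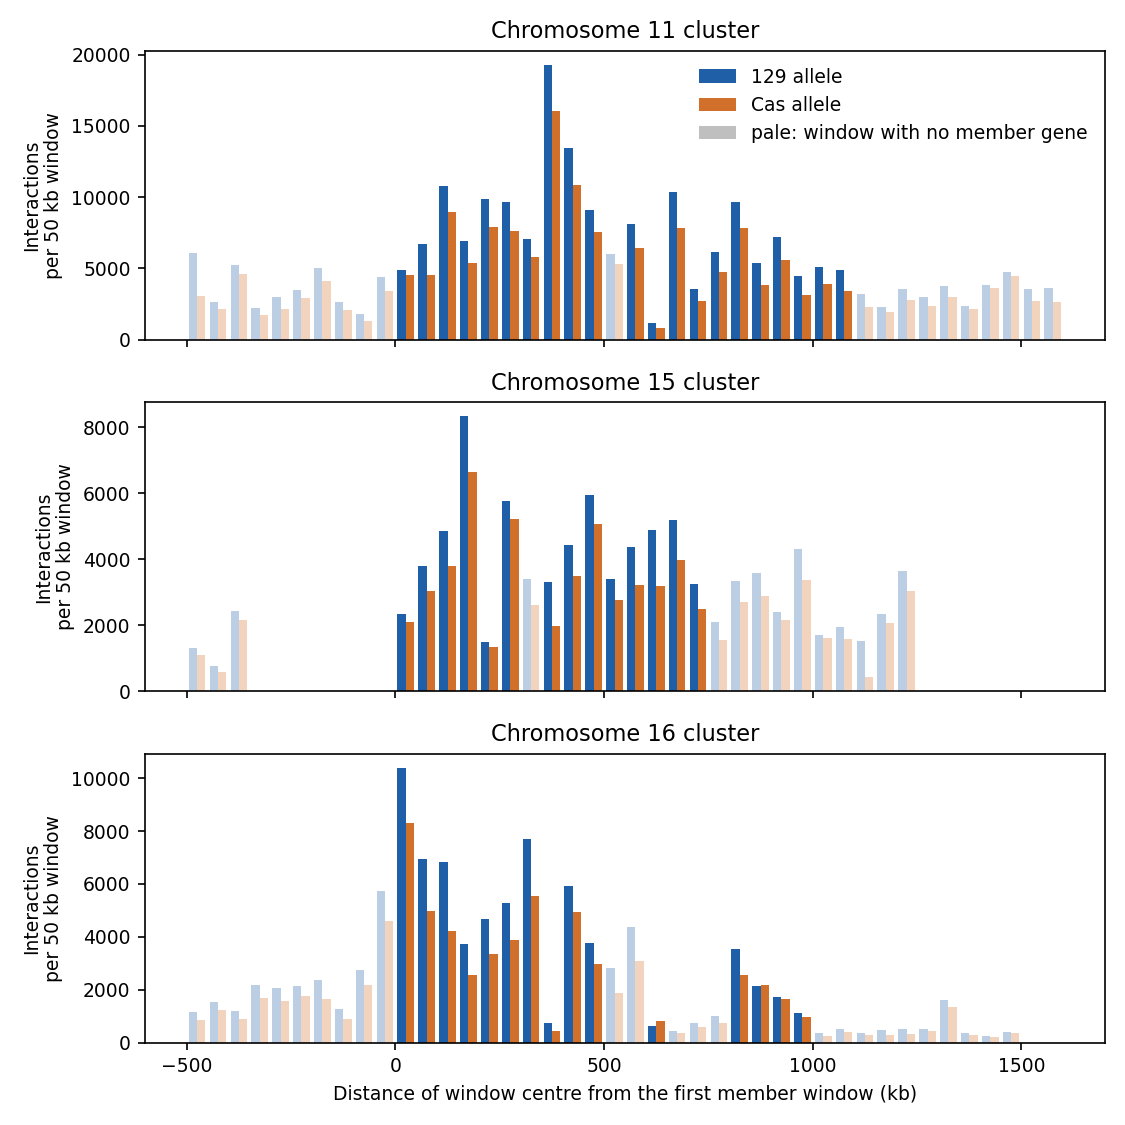
Interactions per 50 kb window (y axis, a scale for each panel) on the 129 and Cas alleles along the 3 clusters and up to 500 kb on each side, against the distance of the window centre from the first member window in kb. Full colour marks the 50 member windows of the clusters. In each panel their median lies above the median of the windows on either side, on both alleles, while single members such as Krtap4-13 (1185 on 129, 847 on Cas) and Krtap16-3 (767 and 450) are low. The tallest pair of bars is 19300 on 129 and 16044 on Cas on chromosome 11.

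Most member windows held more interactions than other windows with the same number of overlapping protein-coding genes. A gene was counted wherever any part of it overlapped the window, whether or not its promoter lay there. Of the 58 member windows 50 hold the start of a member promoter whose sequence was found. Members without a sequence, such as Krt6a and Krt6b, did not count here, although these genes lie wholly inside their window. The other windows were not matched for holding a start. Across all windows the number of protein-coding genes and the summed count had Pearson r = 0.55 and Spearman rho = 0.58, and across the 58 member windows r = 0.30 and rho = 0.18, as descriptions of windows that share baits, neighbours and the same library. Among windows with 1 protein-coding gene the median sum was 6858 in 11 member windows and 1239 in 18128 others. With 2 genes it was 8039 in 17 member windows and 3566.5 in 4836 others, and with 3 genes 9229 in 13 and 5069 in 1515. With 4 genes the medians were close, 6303 in 7 and 5944.5 in 530. The 1 member window with 6 genes was lower, at 3680 against 6718 in 79 others. At 5, 7 and 8 genes the member medians were higher, in 5, 2 and 2 member windows.

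Set against the median of other windows with as many protein-coding genes, 20 of 21 windows on chromosome 11 lay above it, with a median ratio of 2.90. On chromosome 15 it was 13 of 14, with a ratio of 1.93, and on chromosome 16 13 of 15, with a ratio of 1.73. Of the 8 windows outside the clusters 3 lay above, with a ratio of 0.75. The highest ratio, 13.9, was that of Krt23, a type I keratin alone in its window with 9628 interactions on 129 and 7647 on Cas. No source used here gives the number of baited fragments in each window, so bait number and contact frequency cannot be told apart in these counts.

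**Figure D3:**
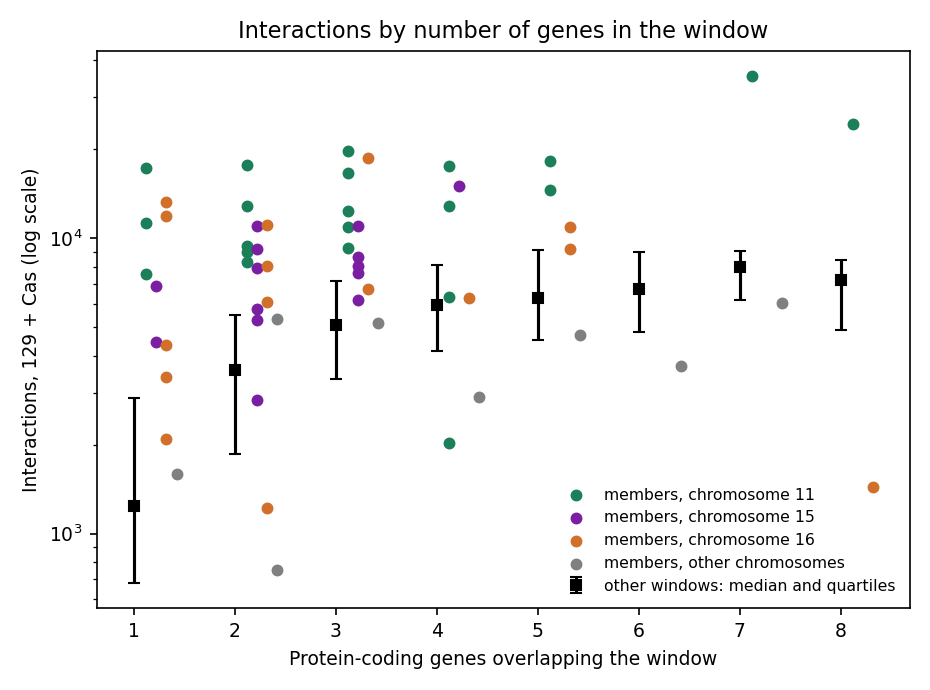
Interactions with both alleles summed (y axis, log scale) against the number of protein-coding genes that overlap the window. Black squares with bars are the median and quartiles of windows without a member, and coloured points are the 58 member windows, set slightly to the right of their gene number. At 1 gene the points of chromosomes 11, 15 and 16 lie above the median of 1239.

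The allelic balance of the 3 clusters lay close to that of the genome, a little to the Cas side. Shares are of summed counts, with exact Clopper-Pearson 95% intervals that cover counting error only, and interactions are not independent molecules. The chromosome 11 cluster summed to 163738 for 129 and 129562 for Cas, a 129 share of 55.83% (55.65 to 56.01%), with single windows from 52.03 to 59.54%. The chromosome 15 cluster summed to 61377 and 48281, a share of 55.97% (55.68 to 56.27%), with windows from 52.49 to 62.72%. The chromosome 16 cluster had 65122 and 49422, a share of 56.85% (56.57 to 57.14%), with windows from 43.06 to 63.02%. The share of each whole chromosome was 57.55%, 56.60% and 57.93% in the same order.

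In the rest of the text the centred ratio is log2((129 + 1)/(Cas + 1)) minus 0.45, the median over all autosomal windows, so that 0 is the balance of the median window and a positive value leans to 129. Its median was -0.09 over the chromosome 11 windows, -0.12 on chromosome 15 and -0.02 on chromosome 16. Windows below 0 numbered 16 of 21, 12 of 14 and 8 of 15. The flanks leaned the same way: within 500 kb the median was -0.10 before and -0.13 after the chromosome 11 cluster, -0.23 before (3 windows) and -0.16 after the chromosome 15 cluster, and -0.07 before and -0.13 after the chromosome 16 cluster. Over all 58 member windows the median was -0.08 and the standard deviation 0.25, against a median of 0 and a standard deviation of 0.45 over all windows. The 4317 other windows whose summed count lay between the quartiles of the members had a median of -0.05 and a standard deviation of 0.29.

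None of the 58 member windows passed the main test, a two-sided beta-binomial test of each window's 129 share against the autosomal share, which allows for the spread between windows and is adjusted by Benjamini-Hochberg over 43762 windows at 0.05. It called 0 member windows higher on 129, where it called 0.727% of all windows, and 0 higher on Cas, against 0.217%. At an unadjusted p under 0.05 it found 2 member windows, 1 in each direction, where 3.83% of all windows passed on the 129 side and 1.68% on the Cas side, and the exact binomial test called 43 of the 58. At the level of loci the beta-binomial test called 0 of 64 in either direction, against 1.03% of all 29346 tested loci higher on 129 and 0.327% higher on Cas. The exact binomial test called 50 of the 64 loci, 14 higher on 129 and 36 higher on Cas, where it called 29% and 32.5% of all tested loci. The exact binomial test, which counts sampling error alone, called 13 member windows higher on 129 and 30 higher on Cas, where it called 27.1% and 24.3% of all windows. Of the 4317 other windows with a summed count between the quartiles of the members it called 2913. A ratio past 2-fold was found in 1 member window on the 129 side and in 0 on the Cas side, against 2.4% and 0.925% of all windows. On simulated windows the beta-binomial test recovered 6% of 2-fold changes and 56% of 4-fold changes, so a change of 2-fold in a single window would usually not be called.

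**Figure D4:**
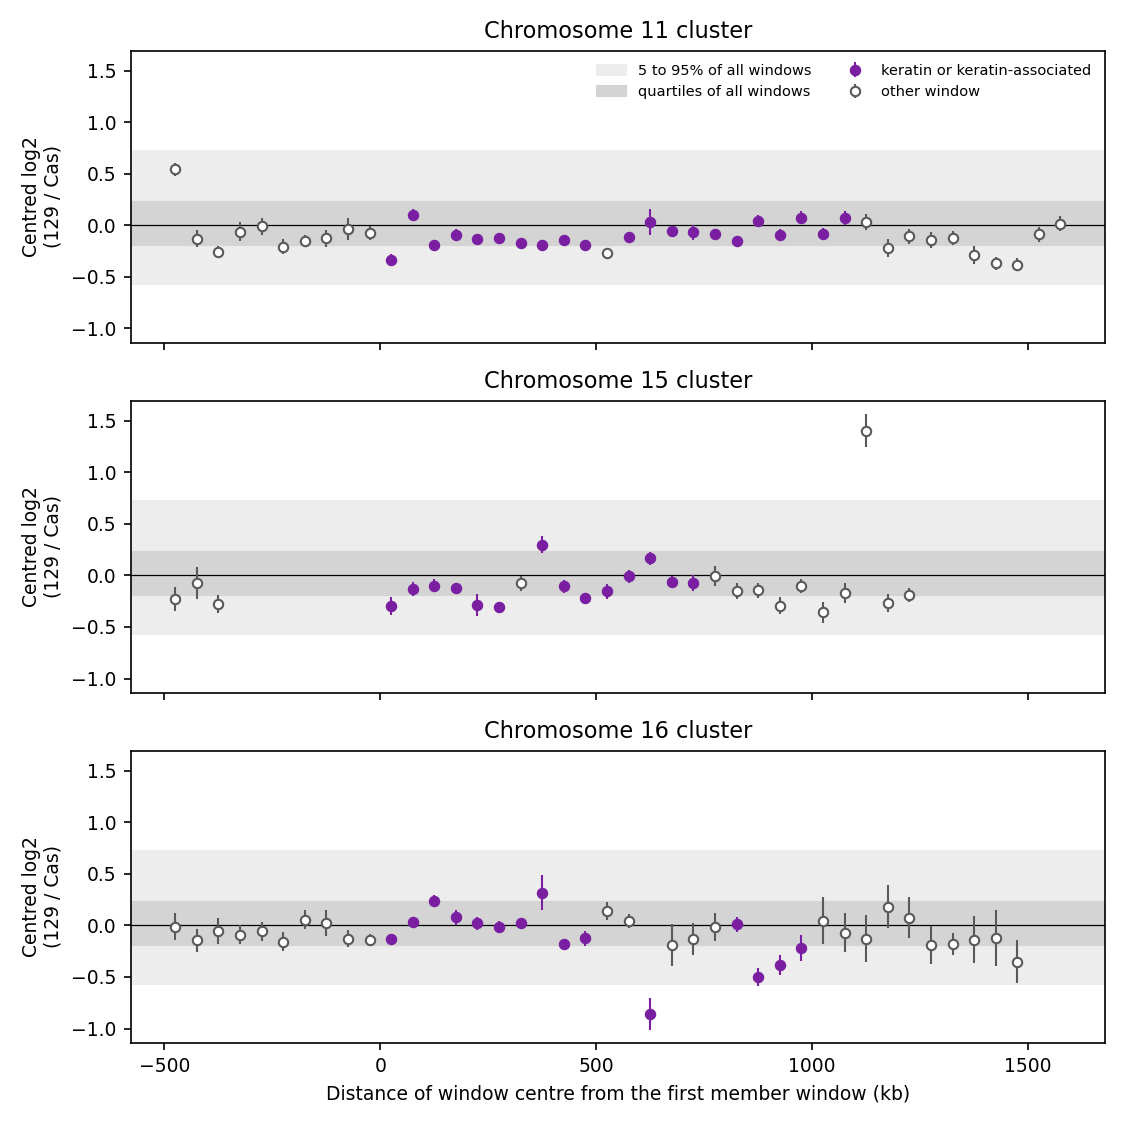
Centred log2 ratio of 129 over Cas (y axis) along the 3 clusters and up to 500 kb on each side, against the distance of the window centre from the first member window in kb. Filled points are member windows and open points other windows, bars are 95% counting intervals, and grey bands are the quartiles and the 5 to 95% range of all windows. Krtap20-2 on chromosome 16, at -0.86, is the only filled point outside the wider band.

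Keratins of simple epithelia and of the basal layer had nearly the same share in every window. The windows that hold Krt7, Krt8, Krt18, Krt19 and Krt20 had 129 shares from 55.61 to 56.65%, 5 windows on 2 chromosomes. Krt8 and Krt18, partners whose genes lie side by side, occupy a window with counts of 3255 for 129 and 2498 for Cas, or 56.6% on 129. Krt20 with Krt12 stood at 9859 and 7871. The windows of the basal-layer genes Krt5, Krt14 and Krt15 lay between 55.98 and 56.38%, and Krt15 shares its window with Krt19, so that window counts in both groups. Krt14 shares its window with Krt16 at 5079 and 3929, and Krt5 with the root sheath keratin Krt71 at 4428 and 3482.

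Suprabasal and inducible keratins had somewhat higher joint shares, within the range of the other windows. The windows of Krt1, Krt2, Krt9 and Krt10 had a joint share of 56.98%, from 55.13 to 59.05%. Lowest was the window of Krt73, Krt2 and Krt1, and that of Krt10, at 56.25%, also holds Krt27 of the root sheath. Krt9, the keratin of palms and soles, was alone in its window with 4480 and 3107 interactions and a centred ratio of 0.07. Krt6a, Krt6b, Krt16 and Krt17 are keratins induced in wounded skin and present in the follicle. Their joint share was 58.81% over 3 windows, of which the Krt16 window also holds the basal-layer gene Krt14. Within that group the window of Krt6b and Krt6a, chromosome 15 from 101650001 to 101700000, stood highest with 3302 on 129 and 1963 on Cas, a share of 62.7% and a centred ratio of 0.30. It was the highest ratio of the chromosome 15 cluster, where the only other window above 0 was that of Krt4, Krt79 and Krt78, with 4886 and 3184 and a ratio of 0.16. Krt4 is the type II keratin of the oesophagus and other wet mucosae. Neither window passed the beta-binomial test.

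Root sheath and hair shaft genes had joint shares below the autosomal one, as most groups of keratin genes did. The joint share was 56.12% for simple epithelia, 56.22% for the basal layer and 56.98% for the suprabasal genes. Only the inducible group, at 58.81%, lay above the autosomal share. Some windows are shared between these groups, such as that of Krt10 and Krt27 and that of Krt14 and Krt16. The windows of Krt25, Krt27 and Krt71 had a joint share of 55.33%. Those of the hair shaft keratins Krt31, Krt32, Krt35, Krt81 and Krt86 had 56.10%, from 55.25 to 58.46%. The 11 windows of the 13 KAP genes chosen as examples of the hair had 55.92%, from 49.25 to 61.72%. All 30 windows of KAP genes had 56.77%, with 15 above and 15 below 0. On chromosome 15 the lowest ratios were those of Krt75, Krt82 and Krt90 at -0.31, Krt80 at -0.30, and Krt82 with Krt84 at -0.29. Krt82 and Krt84 are type II hair keratins, of the cuticle of the hair and of nail and tongue.

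The chromosome 11 cluster was the most even of the 3, with a standard deviation of 0.11 between its 21 windows. The type I genes before the KAP block, from Krt222 to Krt40, had a share of 55.51% over 7 windows, and the KAP block had 55.49% over 8. The type I genes after the block, from Krt33a to Krt42, had 57.00% over 6. The highest ratios were 0.10 for Krt24, with 6714 and 4562 interactions, and 0.07 for Krt9 and for Krt17 with Krt42. The lowest was -0.34, with 4906 and 4523, in the window of Krt222, a keratin-like gene that lies next to the chromatin remodelling gene Smarce1 at the edge of the cluster. Krtap4-6 and the window of Krt25 to Krt27 followed at -0.19.

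On chromosome 16, which holds KAP genes alone, the spread was wider, with a standard deviation of 0.29. The 10 windows from Krtap24-1 to Krtap6-3 had a share of 57.59% and a median centred ratio of 0.02. Highest among them were Krtap16-3 at 0.31, with 767 and 450 interactions, Krtap13-1 at 0.24, with 6826 and 4233, and Krtap13 at 0.08, with 3720 and 2574. Past 2 windows without a member, the 5 windows from Krtap20-2 to Krtap11-1 had a share of 52.75% (52.00 to 53.50%) and a median of -0.38. That division was chosen after the values were seen, so it carries no test.

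Krtap20-2 had the lowest ratio of all 58 member windows. Its window, chromosome 16 from 89200001 to 89250000, holds 8 protein-coding genes, and its counts were 617 for 129 and 816 for Cas, which is a share of 43.1% (40.5 to 45.7%) and a ratio of -0.86. The beta-binomial p was 0.0278 before and 0.70 after adjustment over all windows. Krtap8-1, alone in its window, had 2137 and 2202 and a ratio of -0.50. Krtap7-1, also alone, had 1736 and 1654 and a ratio of -0.38, and Krtap11-1, a KAP gene of the high-sulphur kind, 1128 and 960 and -0.22. Krtap21-1 and Krtap6-2, which lie between Krtap20-2 and Krtap8-1, had 3530 and 2562 and a ratio of 0.01. The 5 member-free windows inside the chromosome 16 cluster had a share of 58.44% and a median of -0.01.

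The 8 windows outside the clusters all lay above 0, with a joint share of 61.95% (61.40 to 62.50%) and a median of 0.16. Single windows had shares from 58.40 to 74.55%, and the joint share includes the highest of them. Set against the 129 share of chromosome 10 itself, the direction of the 2 chromosome 10 windows changed, to the Cas side. One of the 8 windows stood apart: the window of Krtap5-3 and Krtap5-5, ultra-high-sulphur KAP genes, on chromosome 7 from 142200001 to 142250000. Its counts were 3507 for 129 and 1197 for Cas, which is a share of 74.6% (73.3 to 75.8%), 2.93 times as many on 129, and a centred ratio of 1.10. The beta-binomial p was 0.0051 before and 0.27 after adjustment. The window also holds 3 protein-coding gene models without a descriptive name, so the count cannot be assigned to the Krtap5 genes alone.

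The member windows next to that of Krtap5-3 and Krtap5-5 leaned the same way by less. Krtap5-2, in the window before, had 3086 and 2057 and a ratio of 0.13, and Krtap5-1, in the window after, 1769 and 1135 and a ratio of 0.19. Krtap5-4, in the next, had 3107 and 2213 and a ratio of 0.04. The window before Krtap5-2, without a member, had 1093 and 632 and a ratio of 0.34. The window after Krtap5-4, with Ifitm10 and Ctsd, had 3185 and 2834 and leaned to Cas at -0.28. The other members outside the clusters were Krtap28-13 on chromosome 1, with 979 and 609 and a ratio of 0.23, Krtap10-4 with Krtap10-10 on chromosome 10, with 2241 and 1439 and 0.19, and Krtap12-1 on chromosome 10, with 3530 and 2499 and 0.04. Krt8-ps on chromosome 7, a pseudogene of Krt8 beside the oocyte genes Nlrp4e and Nlrp5, had 442 and 311 and a ratio of 0.05, and its sum of 753 was the lowest of all members.

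The deposited distance gives how far the interactions of a window reached, in bp as read here, and was alike on the alleles for most members. The median over windows was 90 kb on 129 and 92 kb on Cas for chromosome 11, 73.5 and 87 kb for chromosome 15, and 119 and 106 kb for chromosome 16. On chromosome 15 Cas had the longer distance in 10 of 14 windows, with a median log2 ratio of -0.10. Over the 58 windows the log2 distances of both alleles had Pearson r = 0.93 and Spearman rho = 0.91, as a description of windows from one library. The shortest distances within the clusters were 24 kb on 129 and 19 kb on Cas for Krtap21-1 and Krtap6-2, and 32 and 39 kb for Krtap24-1 and Krtap26-1. Krt8 with Krt18 had 40 and 44 kb, the window of Krt81 and Krt86 40 and 41.5 kb, and the Krtap3 and Krtap1 window 42 and 35 kb.

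A distance past 2-fold between alleles was found in 3 of 58 member windows in the direction longer on 129, where 8.37% of all 43555 compared windows passed, and in 0 in the direction longer on Cas, where 8.73% passed. The 3 windows were those of Krtap28-13, with 18 kb on 129 and 7 kb on Cas, Krtap20-2, with 189 and 88.5 kb, and Krt8-ps, with 1642.5 and 782 kb. Just inside 2-fold were Krtap8-1, with 188 and 99 kb, and Krtap7-1, with 240 and 139 kb. All 5 windows from Krtap20-2 to Krtap11-1 had the longer distance on 129, and in 4 of them the centred count ratio lay below 0. The longer distance on 129 was also found in all 5 member-free windows inside the cluster and in 7 of the 10 windows after it. Of the 10 member windows before Krtap20-2, 3 had the longer distance on 129. Longest on Cas by ratio were Krtap27-1, with 69 and 111 kb, Krtap10-4 with Krtap10-10, with 117 and 176 kb, and the mucosal Krt4 window, with 48 and 69 kb. On chromosome 15 the window of Krt73, Krt2 and Krt1 followed, with 59 and 76 kb. On chromosome 11 the ratio was largest for Krt24, with 103 and 81 kb, and on the Cas side for the hair keratins Krt31, Krt32 and Krt35, with 78 and 92 kb.

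**Figure D5:**
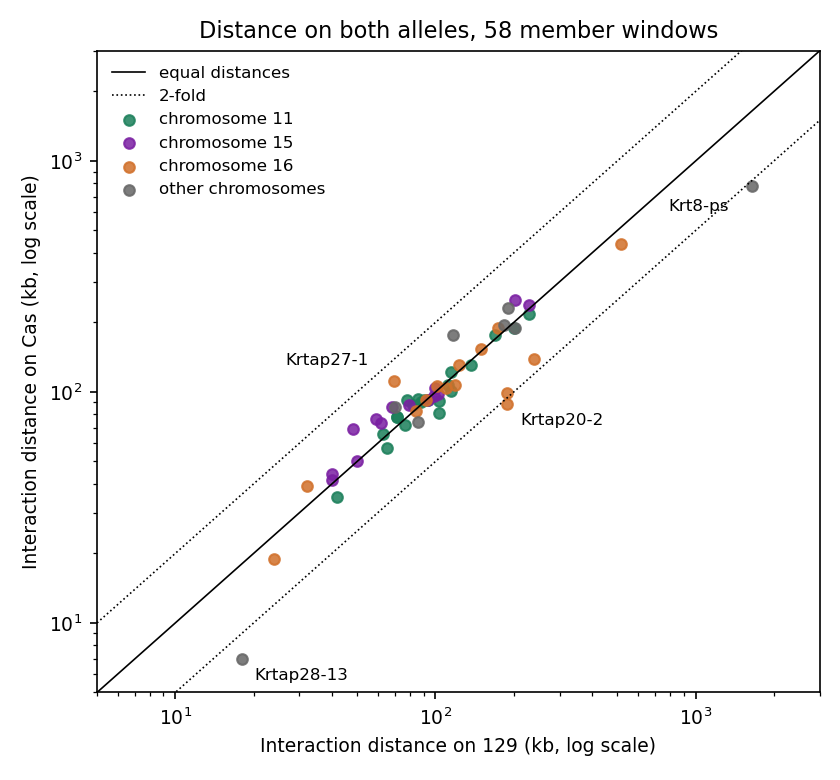
Interaction distance on 129 (x axis, kb, log scale) against Cas (y axis, kb, log scale) for the 58 member windows, coloured by chromosome. The solid line is equality and the dotted lines are 2-fold; Krtap28-13, Krtap20-2 and Krt8-ps lie past the lower dotted line, with distances longer on 129.

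Other genes of epidermis and hair gave values near those of the keratin loci. Of 22 loci of the cornified envelope, the cross-linked shell of dead keratinocytes, 14 lay below 0 with a median of -0.05, and of 18 loci of desmosomes and keratin linkers 13 lay below 0 with a median of -0.05. Of 12 loci of epidermal and hair transcription factors 9 lay below 0 with a median of -0.15. The 64 keratin and KAP loci had 41 below 0 and a median of -0.09, and all tested loci had a median of -0.02. The beta-binomial test called 0 of the 52 loci in these lists, and the exact binomial test called 36, beside the 29% of all loci that it called higher on 129 and the 32.5% higher on Cas. The highest ratios were 0.83 for Lef1, with 3956 interactions on 129 and 1625 on Cas, and 0.78 for Casp14, a protease of the cornified layer, with 4788 and 2032. The lowest was -0.59 for Tchhl1, with 1195 and 1316. Casp14 lies on chromosome 10, and its ratio is centred on all autosomes, not on that chromosome.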

How the data were processed

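The authors' deposited table holds raw interaction counts, whole numbers and not normalised, for each allele in 50 kb windows, and allele-wise distances, read here as bp, for which no source used here says whether they are means or medians. Per the submitters' processing notes, Bowtie2 and mm10 were used. Per the labels' protocols, reads were 100 bp paired. How reads were assigned to alleles, filtered and merged over the 2 samples was not given in the sources used here. Reads of the Cas allele differ more from the reference, and any loss of them in mapping would raise the 129 share.

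The labels of both samples name the same columns, which were taken as pooled, and no replicate spread could be computed. Nothing says that the samples came from separate cultures. Windows with at least 10 interactions were tested with a beta-binomial model in Python 3.11.15 with scipy 1.17.1, with 1 overdispersion over all windows (0.0165, or 6.35 percentage points of spread in the 129 share) and another over loci (0.0136). The exact binomial test was the alternative. P-values were adjusted by Benjamini-Hochberg over all windows or loci. The spread is between windows, not replicates. Distances were compared without a test where each allele had 10 or more interactions. The test was checked on simulated windows.

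Window coordinates were raised by 1 at the start to count from 1. Gene positions, biotypes and promoters were those of RefSeq GRCm38.p6, the mm10 assembly. Genes were named by a rule: for each cluster the 3 windows of largest count, up to 3 per direction of largest ratio at 30 or more interactions, up to 2 per direction of largest distance ratio at 20 or more interactions per allele, windows called by the test, the genes of the role lists, and all members outside the clusters. Krt23, the windows of shortest distance and the genes of the promoter paragraphs were chosen after their values were seen. The members and lists were chosen with earlier results of these data known.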

Additional observations from a re-analysis of the deposited data

How the results depend on the processing

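No replicate could be left out, since both samples share their columns. No paired analysis was possible because the data hold 1 group. With the exact binomial test the calls rose to 43 member windows, 50 member loci and 36 other epithelial loci, since that test leaves out the spread between windows. It called 51.4% of all windows, and of all loci 29% higher on 129 and 32.5% higher on Cas. Among the 4317 other windows with a summed count between the quartiles of the members it called 2913. Without centring the median log2 ratios were 0.36 on chromosome 11, 0.34 on chromosome 15 and 0.43 on chromosome 16, the shift being the autosomal median. Centred on its own chromosome, the chromosome 15 median was -0.0541 and that of chromosome 16 was -0.0435. The chromosome 16 median was -0.0049 in windows that hold the start of a member promoter whose sequence was found. It was the same in windows without another protein-coding gene, so its distance from 0 is small against the spread between windows. In the 37 member windows without another protein-coding gene, 0 passed 2-fold in count and 1 passed 2-fold in distance, the 129 share of the chromosome 11 cluster was 56.03%, and the median distance log2 ratio was -0.0007 on chromosome 11 and 0.1252 on chromosome 16. The cluster medians stayed below 0 with a count minimum of 50, a pseudocount of 0.5 and without pseudogenes. The cluster shares stayed below the autosomal share without the window of largest count and in windows that hold the start of such a promoter. On chromosome 15 that choice leaves out the window of Krt6b and Krt6a, the highest ratio of the cluster. The beta-binomial test called 0 member windows with the chromosome's own share, an equal share of both alleles, overdispersion by quartile of count or a count minimum of 50, with 1 or 2 windows at an unadjusted p under 0.05. Counts of this depth give narrow counting intervals, and the limits are the pooled samples and the unknown number of baits per window.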
